A study of Mus musculus with 24 samples.

Results

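Voltage-gated sodium and calcium channels open when a neuron depolarizes: sodium channels carry the upstroke of the action potential, and calcium channels turn it into calcium entry that drives transmitter release, dendritic signalling and transcription. Each channel is built on a large pore-forming alpha subunit. Sodium channel alpha subunits work with beta subunits that adjust gating and adhesion, and most calcium channel alpha1 subunits with an extracellular alpha2delta subunit and a cytoplasmic beta subunit. The genes named gamma include subunits that mainly assist AMPA-type glutamate receptors. The 34 genes described here were those with a symbol of these families (Scn alpha and beta, Cacna, Cacnb and Cacng) and a mean of at least 0.3 CPM (counts per 1e6 counts of a library) over 24 libraries, out of 51912 genes counted. They held 9 of 10 calcium alpha1 genes, 4 of 4 alpha2delta genes, 4 of 4 calcium beta genes and 6 of 7 gamma genes, and the rest were sodium channel genes.

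Messenger RNA of dorsal and ventral hippocampus from 12 C57BL/6J mice was sequenced, and every animal gave a library of each region. The mice were the male and female offspring of sires given nicotine or, as the control, saline over a long period, and 3 mice of each sire treatment and sex were used; their ages and the genotype of the dams were not given. The groups were thus nicotine-sired males, nicotine-sired females, saline-sired males and saline-sired females, in each region, called A to C by the letter in their labels. Every animal of a sire treatment and sex carried the same number in its label, so that number and the group cannot be told apart. The number of sires or litters behind a group was not given. P-values within a region therefore measure the spread between these 12 animals. The fit of all 24 libraries takes both libraries of an animal as independent, unless the animal is given as a block. Libraries held between 32049770 and 47486547 counts, with a median of 39578834. Neuronal markers were high in every library, with a summed level of 3424 to 4668 CPM in ventral and 3268 to 5278 CPM in dorsal libraries for Snap25, Syt1, Rbfox3 and Stmn2. Because whole tissue was used, fewer cells of a type and less RNA per cell cannot be told apart. Of the 12 dorsal libraries, those of saline-sired male A and nicotine-sired male C held the lowest value of 8 of the 34 genes each, and the highest of 5 and 3. The dorsal library of nicotine-sired female A held the most highest values, those of 11 genes, and the lowest of 7. Where a sire treatment fold change of a gene given by library moved by over 1.5 times without this animal, that value stands beside it.

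Of the 5 genes that fell under 0.3 CPM, Cacna1f (a retinal alpha1 subunit) came nearest at 0.079 CPM, followed by Scn4a (skeletal muscle) at 0.050, Scn11a and Scn10a (both of sensory neurons) at 0.044 and 0.041, and Cacng1 (skeletal muscle) at 0.030. The lowest genes that met the cut were Cacna1s, the skeletal muscle L-type alpha1 gene, at 0.513 CPM and Cacng6 at 0.848 CPM. All 34 genes passed the low-count filter of every fit. Since the strand setting of the counts was not given, genes whose exons overlap another gene are uncertain: Cacna1d (mean 24.5 CPM) shares 589 bp with Chdh (5.56 CPM) and Cacnb4 (95.5 CPM) 1433 bp with A430018G15Rik (1.08 CPM), both on the opposite strand, and Cacng8 (102 CPM) holds the miRNA gene Gm23450 (14.7 CPM) on its own strand.

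Levels of different genes were set side by side as CPM per kilobase (kb) of exon, as medians of the 24 libraries. Among sodium alpha genes, Scn8a, the main alpha subunit of mature axon initial segments and nodes of Ranvier, was highest at 16.1 CPM per kb, followed by Scn2a, the other main axonal subunit of excitatory neurons, at 14.2. Their ranges over libraries overlapped, from 13.1 to 19.8 CPM per kb for Scn8a and from 11.1 to 21.2 for Scn2a. Scn1a, the alpha subunit that inhibitory interneurons depend on most, stood at 5.37 CPM per kb and Scn3a, which is best known from the embryonic brain, at 2.28. Scn7a, an atypical alpha subunit involved in sensing sodium concentration, had 0.287 CPM per kb, and Scn9a, best known from pain-sensing neurons, was lowest at 0.117. Within the sodium alpha total per kb, Scn8a made up a median of 38.3% in ventral and 44.3% in dorsal libraries, and Scn2a 39.5% in ventral and 34.7% in dorsal libraries.

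Of the sodium beta genes, Scn2b stood at 53.3 CPM per kb, Scn3b at 35.7 and Scn4b at 5.48. Scn4b, which is linked to resurgent sodium current, varied most between libraries, from 1.54 to 21.4 CPM per kb, while Scn2b ranged from 47.1 to 57.8. The calcium alpha1 genes were led by Cacna1e (R-type) at 10.3 CPM per kb and Cacna1a (P/Q-type, the main presynaptic channel) at 9.54. The T-type genes Cacna1h, Cacna1i and Cacna1g had 8.09, 7.16 and 3.75 CPM per kb, Cacna1b (N-type) 7.13, and the L-type genes Cacna1c and Cacna1d 3.39 and 1.92, with Cacna1s lowest at 0.0677. The order from Cacna1h to Cacna1c depended on the length used: over the longest coding transcript, Cacna1c stood at 10.8 CPM per kb, above Cacna1b at 9.87, Cacna1h at 9.60, Cacna1i at 7.21 and Cacna1g at 4.54.

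Among alpha2delta genes, Cacna2d1, a binding site of gabapentin, had 12.7 CPM per kb, Cacna2d3 9.90, Cacna2d2 2.99 and Cacna2d4, best known from photoreceptors, 0.128. Cacnb3 led the calcium beta genes at 58.8 CPM per kb, before Cacnb1 at 28.4, Cacnb4 at 10.4 and Cacnb2 at 3.60; over the longest coding transcript Cacnb2, at 12.1, stood above Cacnb4 at 11.3. The gamma genes ran from Cacng7 at 47.2 and Cacng8 at 42.2 CPM per kb through Cacng3 at 23.1, Cacng2 (stargazin) at 9.82 and Cacng4 at 6.24 to Cacng6 at 0.392. Cacng7 and Cacng8 could not be ranked, since over the longest coding transcript both stood at 52.1 CPM per kb.

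**Figure D1:**
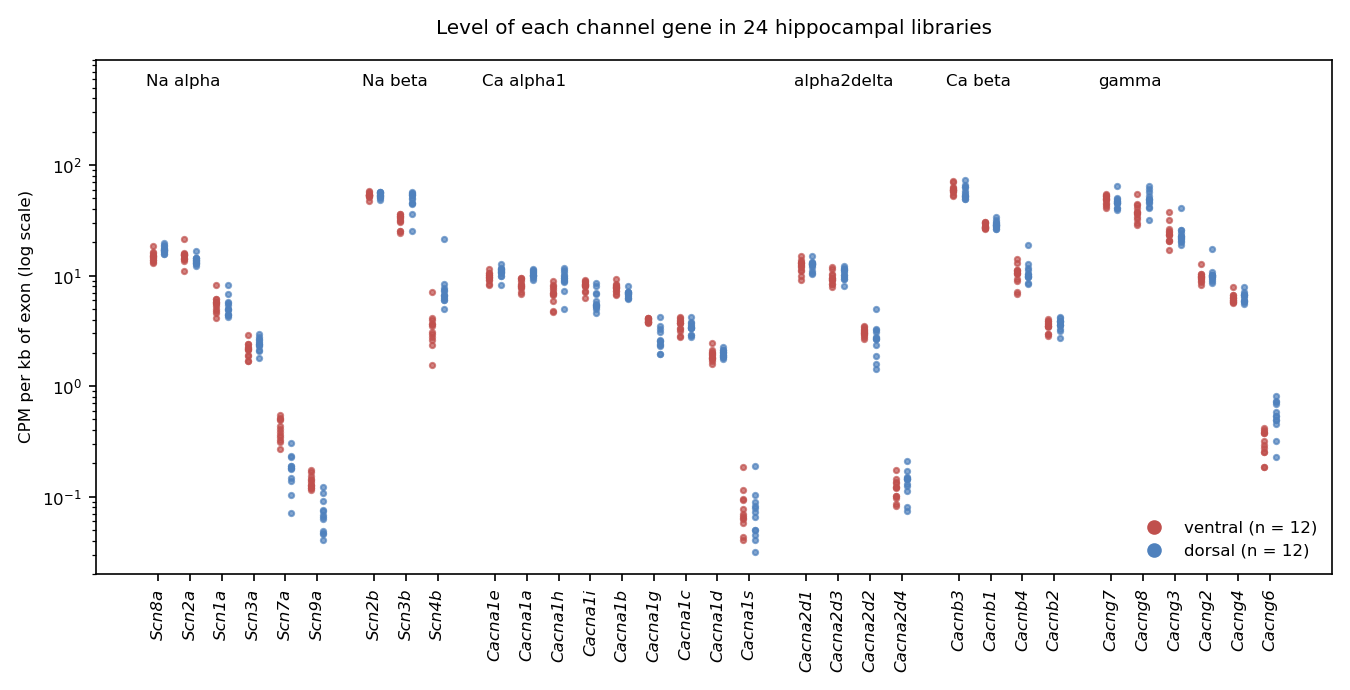
Level of 32 channel genes in CPM per kilobase of exon (log scale), with 1 point per library, ventral (n = 12) left of dorsal (n = 12). Of the genes drawn, Cacnb3 is highest, with a median of 58.8 over all libraries, Cacna1s lowest at 0.0677, and the ventral and dorsal points of Scn7a, Scn4b, Scn9a and Cacng6 lie farthest apart.

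The first comparison asked where the 2 regions of the hippocampus differ. In ventral relative to dorsal hippocampus, 5 of the 34 genes were higher and 8 lower (edgeR quasi-likelihood F test, adjusted p under 0.05, 12 libraries a region), and 21 did not pass. Of all 19849 genes tested, 29.2% passed, 14.3% higher and 14.9% lower. The median log2 fold change over the 34 genes was -0.04, against -0.01 over all genes, and the median size without sign was 0.17 against 0.13. The 5 higher genes were Scn7a, Scn9a, Cacna1g, Cacna1i and Cacna1b, and the 8 lower ones Scn4b, Cacng6, Scn3b, Cacna1h, Cacng8, Cacna1a, Scn8a and Cacna1e. None of the 34 genes separated all ventral from all dorsal libraries, which 1.01% of all genes did. With the animal as a block, which raised the share of all genes called to 35.5%, 17 of the 34 passed: the same 13 plus Scn3a (-0.18) and Cacna2d3 (-0.12), lower in ventral hippocampus, and Scn2a (0.13) and Cacnb3 (0.09), higher there. Without nicotine-sired female A all 13 genes still passed, and Scn3a passed as well (-0.19, edgeR adjusted p = 0.0349), with 6178 genes called in all, against 5803.

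**Figure D2:**
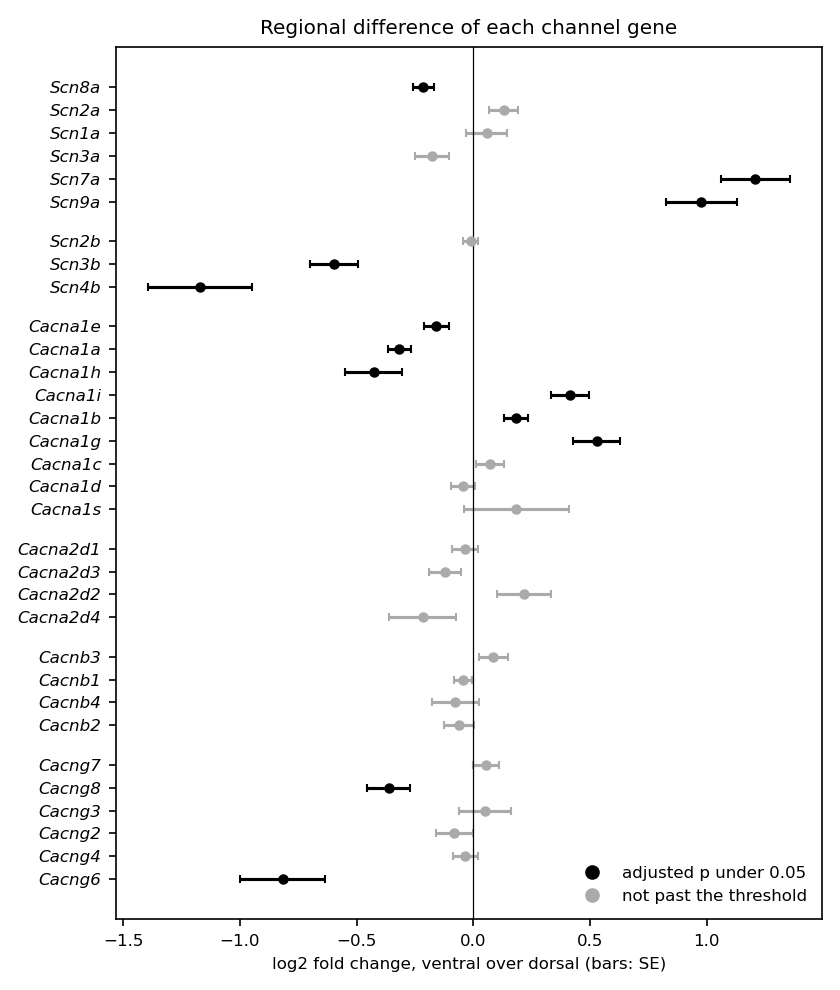
Log2 fold change of 32 channel genes, ventral over dorsal hippocampus, with its standard error, grouped by subunit class and ordered by level. The 13 genes past the adjusted p threshold (black) run from Scn4b at -1.17 to Scn7a at 1.21, and none of the 4 alpha2delta and 4 calcium beta genes is among them.

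Among the sodium alpha genes, the largest differences were in genes of low level. Scn7a ranged from 1.98 over a median of 2.92 to 4.01 CPM in ventral libraries, against 0.519, 1.33 and 2.23 CPM in dorsal libraries. The regions overlapped by few libraries, and the log2 fold change was 1.21 ± 0.15 (SE), which is 2.31-fold (edgeR adjusted p = 3.49e-06). Scn9a had 1.46, 1.69 and 2.25 CPM as lowest, median and highest ventral values, against 0.519, 0.857 and 1.58 CPM in dorsal libraries. Its log2 fold change was 0.98 ± 0.15 (edgeR adjusted p = 4.83e-05). An antisense gene, Gm13629, overlaps 180 bp of Scn9a exon at a similar level of 1.10 against 1.33 CPM, and the strand setting of the counts was not given, so reads of the 2 genes there cannot be told apart. These genes stand at the end of a cluster of sodium channel genes on chromosome 2, in the order Scn3a, Scn2a, Scn1a, Scn9a and Scn7a, with gaps of 53.1, 503, 39.2 and 38.5 kb. Toward the other end of the cluster the regional log2 fold changes were 0.06 ± 0.09 for Scn1a, 0.13 ± 0.06 for Scn2a and -0.18 ± 0.07 for Scn3a, none of which passed the test without the animal block.

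The sequences before the starts of the neighbours Scn7a and Scn9a are shown because these genes were the ones most raised in ventral hippocampus, and that of Cacna1i because it has a start in the table that matches its gene model. The windows span chr2:66784911-66785160 (minus strand) for Scn7a, chr2:66634963-66635212 (minus strand) for Scn9a and chr15:80286988-80287237 (plus strand) for Cacna1i in GRCm38.p6, from RefSeq, which gave such windows for 25 of the 34 genes. Each holds the 250 bases before the RefSeq start, 5′ to 3′ on the gene's strand. Capitals mark matches, on either strand, to 5 motifs that are spelled out after them.
Scn7a: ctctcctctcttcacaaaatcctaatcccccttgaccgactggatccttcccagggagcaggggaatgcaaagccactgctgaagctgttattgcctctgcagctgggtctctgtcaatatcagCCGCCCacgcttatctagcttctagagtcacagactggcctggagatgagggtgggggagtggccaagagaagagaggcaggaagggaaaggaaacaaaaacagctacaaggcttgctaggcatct
Scn9a: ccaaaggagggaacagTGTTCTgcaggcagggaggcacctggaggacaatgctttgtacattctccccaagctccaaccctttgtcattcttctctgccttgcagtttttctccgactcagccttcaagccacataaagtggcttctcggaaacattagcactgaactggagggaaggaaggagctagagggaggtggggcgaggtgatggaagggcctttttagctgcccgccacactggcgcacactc
Cacna1i: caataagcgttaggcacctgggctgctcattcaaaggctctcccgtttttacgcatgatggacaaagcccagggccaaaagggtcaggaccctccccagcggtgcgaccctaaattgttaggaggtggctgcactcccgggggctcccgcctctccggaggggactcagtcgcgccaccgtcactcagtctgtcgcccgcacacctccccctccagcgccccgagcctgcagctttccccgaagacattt
The Scn7a window held 1 GC box and that of Scn9a 1 glucocorticoid receptor half-site, both on the opposite strand, and that of Cacna1i none of the 5 motifs. No match overlapped another motif. The GC box (GGGCGG) was in 13 of the 35 windows of these channel genes and in 32.7% of all 32851 windows of the table. The half-site of the glucocorticoid receptor (AGAACA) was in 7 of the 35 and 16.1% of all windows. The CCAAT box, searched by these letters, was in 8 of the 35 and 33.8% of all windows. The TATA box (TATAAA) was in 2 of the 35 and 12.4% of all windows. The cyclic AMP response element (TGACGTCA) was in none of the 35 and 1.55% of all windows.

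Scn8a, the highest sodium alpha gene, was lower in ventral hippocampus by a small amount: 207, 234 and 289.7 CPM as lowest, median and highest ventral values, against 245, 269 and 313 CPM in dorsal libraries (log2 fold change -0.21 ± 0.05, edgeR adjusted p = 0.00119).

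Among the sodium beta genes, Scn4b fell most in ventral hippocampus. It had 7.66, 16.4 and 35.2 CPM as lowest, median and highest ventral values, against 24.9, 33.2 and 107 CPM in dorsal libraries (log2 fold change -1.17 ± 0.22, edgeR adjusted p = 0.000697). The highest value of each region came from nicotine-sired female A. Apart from this animal, ventral values ended at 20.7 CPM, below the lowest dorsal one, and the fold change without it was -1.14. Scn2b, which lies 8.32 kb from Scn4b on chromosome 9 (chr9:45117782-45130070 and chr9:45138395-45154152, both on the plus strand), had a log2 fold change of -0.01 ± 0.03. Scn3b, which associates with alpha subunits without a covalent bond, had 134, 176 and 196 CPM in ventral libraries, against 139, 272 and 313 CPM in dorsal libraries (-0.60 ± 0.10, edgeR adjusted p = 0.000229). Again the low dorsal value was that of nicotine-sired female A, and the next lowest dorsal value, 197 CPM, lay above every ventral one.

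The calcium alpha1 genes split, with 3 higher and 3 lower in ventral hippocampus. Within the T-type class, which opens near the resting potential, Cacna1g and Cacna1i were higher and Cacna1h lower. Cacna1g had 37.7, 39.8 and 42.1 CPM as lowest, median and highest ventral values, against 19.8, 25.8 and 42.5 CPM in dorsal libraries (0.53 ± 0.10, edgeR adjusted p = 0.000542). The ventral libraries were close to each other, with a coefficient of variation of 3.86%, and the dorsal ones spread over 24.4%. Cacna1i had 61.3, 81.3 and 89.6 CPM in ventral libraries, against 45.4, 54.2 and 84.5 CPM in dorsal libraries (0.42 ± 0.08, edgeR adjusted p = 0.000605). The highest dorsal value of Cacna1g and Cacna1i was that of nicotine-sired female A, and without this animal the log2 fold changes were 0.62 and 0.47. Cacna1h had 45.9, 68.1 and 86.8 CPM in ventral libraries, against 48.9, 92.1 and 114 CPM in dorsal libraries (-0.43 ± 0.12, edgeR adjusted p = 0.0119). As shares of the calcium alpha1 total per kb, Cacna1g and Cacna1i made up medians of 7.75% and 16.3% in ventral libraries, against 5.02% and 10.6% in dorsal ones, and Cacna1h 13.7% in ventral libraries, against 18.2% in dorsal ones.

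The genes of the presynaptic channels also went in different directions. Cacna1a had 77.8, 93.5 and 109.7 CPM as lowest, median and highest ventral values, against 105, 116 and 130.4 CPM in dorsal libraries. Few libraries overlapped, and the log2 fold change was -0.32 ± 0.05 (edgeR adjusted p = 3.54e-05). Cacna1b had 66.2, 78.2 and 92.2 CPM in ventral libraries, against 60.6, 69.0 and 79.6 CPM in dorsal libraries, so most of the ranges overlapped (0.18 ± 0.05, edgeR adjusted p = 0.00871). Cacna1e had 209, 245 and 287 CPM in ventral and 209, 274 and 321 CPM in dorsal libraries (-0.16 ± 0.06, edgeR adjusted p = 0.0347), and its call was lost in 9 of 12 refits that each left out 1 animal. The L-type genes Cacna1c (0.07 ± 0.06), Cacna1d (-0.04 ± 0.05) and Cacna1s (0.19 ± 0.23) did not pass.

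With every animal, none of the 8 auxiliary alpha2delta and beta genes passed without the animal block, and Cacna2d3 and Cacnb3 passed with it (edgeR adjusted p = 0.0383 and 0.0311). When saline-sired male A was left out, Cacna2d2 passed without the block (0.30, edgeR adjusted p = 0.0487), with 4915 genes called in all, against 5803. With every animal and no block, the log2 fold changes of the 8 genes ran from -0.22 ± 0.14 for Cacna2d4 to 0.22 ± 0.12 for Cacna2d2, and the narrowest was Cacnb1 at -0.04 ± 0.04. Among the gamma genes, Cacng8, an AMPA receptor auxiliary subunit prominent in hippocampus, had 66.8, 87.4 and 127 CPM as lowest, median and highest ventral values, against 73.9, 114 and 151 CPM in dorsal libraries (-0.36 ± 0.09, edgeR adjusted p = 0.0064). Cacng6, best known from skeletal muscle, had 0.368, 0.608 and 0.820 CPM in ventral libraries, against 0.447, 1.06 and 1.60 CPM in dorsal libraries (-0.82 ± 0.18, edgeR adjusted p = 0.00171). These neighbours lie on chromosome 7 after Cacng7, at gaps of 22.5 and 8.55 kb, and Cacng7 itself did not pass (0.06 ± 0.06). Cacng2, Cacng3 and Cacng4, which also serve AMPA receptors, lay between -0.08 ± 0.08 and 0.05 ± 0.11.

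**Figure D3:**
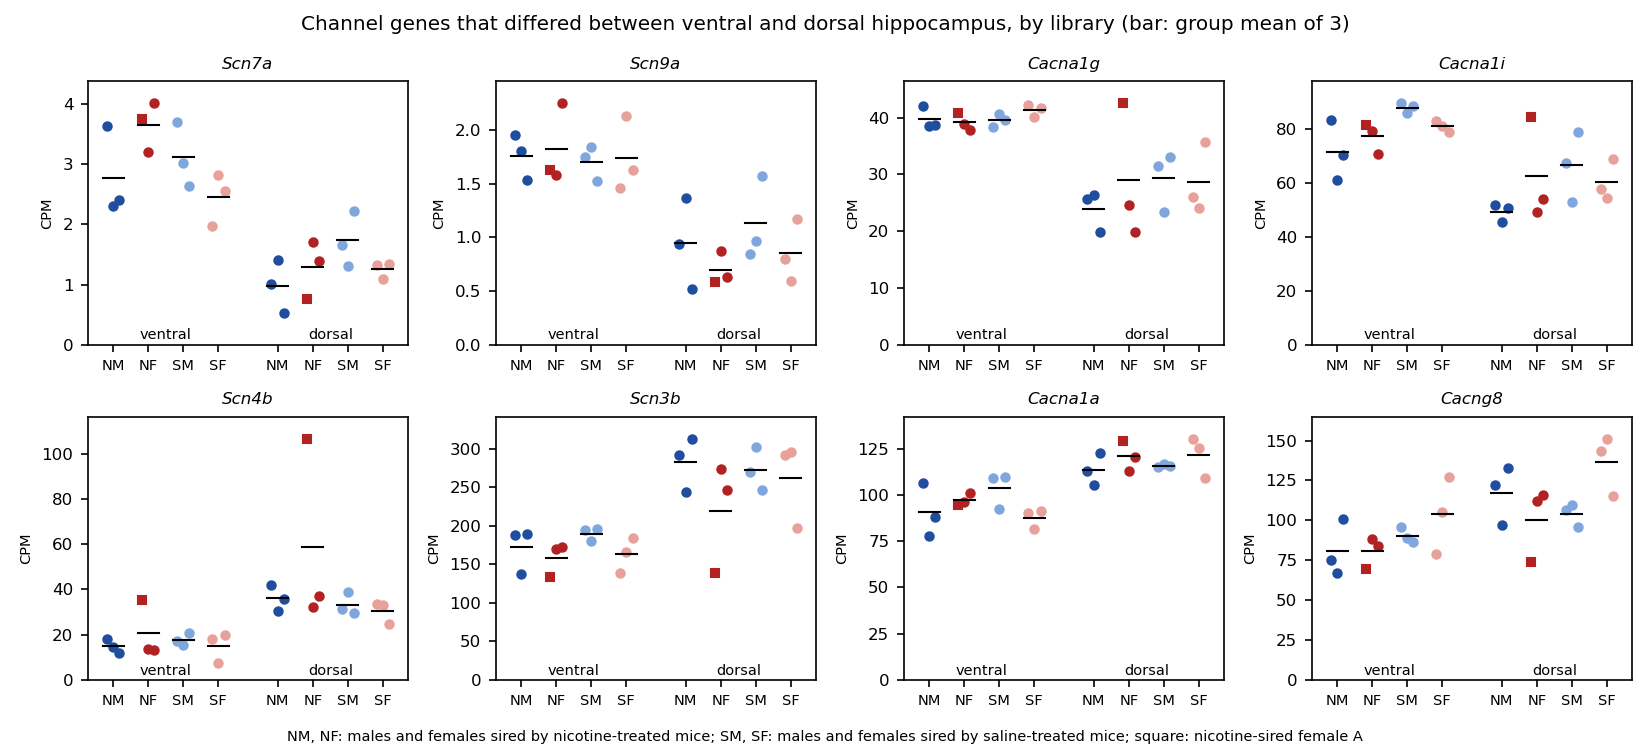
CPM of 8 genes that differed between regions, with 1 point per library, ventral left of dorsal and nicotine-sired left of saline-sired within each region; bars are means of 3 animals and squares are nicotine-sired female A. The dorsal square lies above the other nicotine-sired dorsal points for Cacna1g at 42.5, Cacna1i at 84.5 and Scn4b at 107, and below them for Scn3b at 139 and Cacng8 at 73.9.

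Cell type markers moved with region as well. In ventral relative to dorsal hippocampus, all 4 dentate granule cell markers were lower (median log2 fold change -1.26), as were all 5 oligodendrocyte markers (-0.81) and all 7 choroid plexus markers (-2.11), while all 4 oligodendrocyte precursor markers (0.26), 3 of 6 inhibitory neuron markers (median of the 6, 0.18) and 2 of 4 markers of deep cortex and subiculum (median of the 4, 0.38) were higher. Of all genes tested, 14.3% passed as higher in ventral hippocampus and 14.9% as lower. The summed level of the dentate granule markers was 62.6 to 175 CPM in ventral and 129 to 380.1 CPM in dorsal libraries. That of the choroid plexus markers was uneven within both regions. It lay at 61.3 to 153 or at 1098 to 5524 CPM in dorsal libraries, and at 44.1 to 172 or at 1804 to 1916 CPM in ventral ones. No marker of these 6 lists was at 0 in any library. The leptomeninges markers, a list outside these 6, summed to 63.7 to 114 CPM in ventral and 17.1 to 56.8 CPM in dorsal libraries, without overlap. Of that list only Dcn was without overlap by itself (48.9 to 97.7 CPM in ventral, 5.28 to 41.7 CPM in dorsal libraries). Col1a1, Col1a2 and Lum overlapped between the regions. The part of these cell types in the channel differences was not tested.

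Genes of proteins that bind, anchor, modify or act with these channels were examined as a list of 32, all of them tested. In ventral relative to dorsal hippocampus 6 were higher and 12 lower, against 14.3% and 14.9% of all genes, and 14 did not pass. Fgf11, an intracellular modulator of sodium channels, had 30.2, 35.8 and 42.1 CPM as lowest, median and highest ventral values, against 19.2, 22.4 and 32.4 CPM in dorsal libraries (0.63 ± 0.06, edgeR adjusted p = 4.39e-07). The other higher genes were its relative Fgf12 (0.35 ± 0.11), the sodium leak channel Nalcn (0.26 ± 0.04) with its partner Unc80 (0.16 ± 0.05), and the active zone genes Rims2 (0.34 ± 0.09) and Rims1 (0.20 ± 0.07). Stac, an adaptor of L-type calcium channels, fell most in ventral hippocampus, with 1.19, 2.34 and 4.54 CPM in ventral libraries, against 3.09, 6.46 and 9.20 CPM in dorsal libraries (-1.34 ± 0.17, edgeR adjusted p = 6.68e-06). Also lower were the alpha2delta relative Cachd1 (-0.72 ± 0.14), the intracellular calcium release channel Ryr2 (-0.37 ± 0.07), the ubiquitin ligase Nedd4l (-0.33 ± 0.06) and the active zone gene Rimbp2 (-0.29 ± 0.05). In the sire treatment comparisons none of the 32 passed (edgeR adjusted p), with between 1 and 7 at an unadjusted p under 0.05, against 4.76% to 20.2% of all genes, and DESeq2 called at most 1 in any of them, against 0% to 7.12% of all genes.

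The second set of comparisons asked what differed in offspring of nicotine-treated sires, in each region over both sexes, in each sex, and between the sexes. In ventral hippocampus over both sexes, Cacna2d1 rose and none of the other 33 genes passed; of all 19224 genes tested, 1.75% passed, and 1.1% passed as higher. With DESeq2, Cacna2d1 again was the only one of the 34 called (adjusted p = 0.00341), with 3.54% of all genes, and 5 of the 34, against 15.7% of all genes, had an unadjusted p under 0.05. Cacna2d1 (chr5:15934691-16374511, plus strand) had 189, 159.8 and 172 CPM in nicotine-sired males and 165, 156 and 161 CPM in nicotine-sired females, against 153, 147 and 123 CPM in saline-sired males and 138, 139 and 113 CPM in saline-sired females. All 6 nicotine-sired libraries lay above all 6 saline-sired ones, a separation that 1.28% of all genes tested showed. The log2 fold change was 0.30 ± 0.07, which corresponded to 167 ± 11.8 CPM in nicotine-sired and 136 ± 14.9 CPM in saline-sired offspring (SD, n = 6 each; edgeR adjusted p = 0.0357). It was 0.30 ± 0.10 in males and 0.31 ± 0.10 in females, neither past the threshold alone (edgeR adjusted p = 0.128 and 0.202).

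The window before the Cacna2d1 start is shown because Cacna2d1 was the only one of the 34 genes that edgeR called over both sexes. It spans chr5:15934441-15934690 (GRCm38.p6, plus strand, RefSeq), with capitals as above.
Cacna2d1: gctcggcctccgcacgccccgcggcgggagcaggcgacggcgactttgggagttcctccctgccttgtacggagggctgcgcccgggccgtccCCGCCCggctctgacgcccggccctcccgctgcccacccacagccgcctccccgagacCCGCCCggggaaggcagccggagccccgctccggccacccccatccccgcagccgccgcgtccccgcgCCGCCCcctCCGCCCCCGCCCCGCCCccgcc
It was 82.4% G and C, against a median of 52.4% over all windows, and held 6 GC boxes, all on the opposite strand, and none of the other 4 motifs.

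The call on Cacna2d1 rested on most of the animals: it was lost in 8 of 12 refits that each left out 1 animal, with log2 fold changes of 0.25 to 0.33. Ventral libraries of nicotine-sired males also held more counts on noncoding genes antisense to abundant genes, 0.361% to 0.473% of the counts of those genes, against 0.181% to 0.222% in saline-sired males. Those of nicotine-sired females held 0.229% to 0.299%, against 0.193% to 0.210% in saline-sired females. Every nicotine-sired ventral library thus lay above every saline-sired one, so a fit with this ratio as a covariate can hardly separate it from sire treatment. With that covariate, chosen after seeing the data, the Cacna2d1 fold change was 0.21 ± 0.19 (edgeR adjusted p = 0.933). That fit called 1 gene in all, against 337 without the covariate. Without the covariate, 2 of 4 microglial and 1 of 5 oligodendrocyte markers passed as higher in the same comparison, and no marker of the other 13 lists passed. The microglial markers summed to 158 to 200.4 CPM in nicotine-sired males and 169 to 180.1 CPM in nicotine-sired females, against 144 to 170.4 CPM in saline-sired males and 175 to 179.9 CPM in saline-sired females. These markers did not all rise. Over both sexes, Csf1r had 75.4 to 89.8 CPM in nicotine-sired, against 72.0 to 89.4 CPM in saline-sired libraries. Tmem119 had 16.7 to 23.8 CPM in nicotine-sired, against 20.5 to 26.3 CPM in saline-sired libraries. All 7 choroid plexus markers had higher fold changes (median log2 fold change 1.70), of which none passed with edgeR and 3 did with DESeq2. Their sums were high in nicotine-sired females B and C alone, at 1916 and 1804 CPM. The other nicotine-sired ventral libraries held 94.1 to 147 CPM, within the 44.1 to 172 CPM of the saline-sired ones. The part of these cell types in the Cacna2d1 difference was not tested. In dorsal hippocampus Cacna2d1 overlapped between the groups, with 159, 159 and 165 CPM in nicotine-sired males and 163, 137 and 149.9 CPM in nicotine-sired females, against 128, 154 and 159.6 CPM in saline-sired males and 185, 160.3 and 131 CPM in saline-sired females. The sire treatment difference in ventral minus that in dorsal hippocampus was 0.28 ± 0.11 for Cacna2d1 and did not pass (edgeR adjusted p = 0.881).

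Cacna1i and Scn2a came next in ventral hippocampus over both sexes and did not pass. Cacna1i had 83.4, 61.3 and 70.2 CPM in nicotine-sired males and 81.5, 79.5 and 70.9 CPM in nicotine-sired females, against 89.6, 85.9 and 88.6 CPM in saline-sired males and 83.0, 81.1 and 79.0 CPM in saline-sired females (-0.18 ± 0.07, edgeR adjusted p = 0.193). Its values were lower in all 3 nicotine-sired males than in any saline-sired male (-0.30 ± 0.09, edgeR adjusted p = 0.111). Without nicotine-sired male A, Cacna1i passed over both sexes (-0.24, edgeR adjusted p = 0.0353) and in males (-0.42, edgeR adjusted p = 0.011), where 256 and 645 genes were called in all, against 337 and 617 with every animal. Scn2a had 270.2, 178 and 194 CPM in nicotine-sired males and 201, 196 and 204 CPM in nicotine-sired females, against 198, 185 and 196 CPM in saline-sired males and 178, 173 and 141 CPM in saline-sired females (0.22 ± 0.09, edgeR adjusted p = 0.264). Its highest value was that of nicotine-sired male A, and without that animal the fold change was 0.12.

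Within ventral males none of the 34 genes passed, of all genes 3.21% did, and 3 of the 34 had an unadjusted p under 0.05, as 15.8% of all genes did. With DESeq2 none of the 34 passed there, and 4.65% of all genes did. After Cacna1i and Cacna2d1 came Scn2b, a beta subunit bound covalently to the alpha subunit, with 247, 219 and 238 CPM in nicotine-sired males, against 265, 250.4 and 269 CPM in saline-sired males (-0.16 ± 0.06, edgeR adjusted p = 0.227). Within ventral females none of the 34 and 0.0312% of all genes passed, and 6 of the 34, against 13.9% of all genes, had an unadjusted p under 0.05. With DESeq2 the figures there were none of the 34 and 1.4% of all genes. Cacng2 had 69.9, 54.5 and 53.0 CPM in nicotine-sired females, against 51.3, 45.4 and 48.7 CPM in saline-sired females (0.29 ± 0.10, edgeR adjusted p = 0.231), and its fold change without nicotine-sired female A was 0.15. Scn7a had 3.76, 3.20 and 4.01 CPM in nicotine-sired females, against 1.98, 2.81 and 2.55 CPM in saline-sired females (0.59 ± 0.21, edgeR adjusted p = 0.251). The groups did not overlap for 7 of the 34 genes in ventral females, all higher in nicotine-sired ones, against 19.9% of all genes in either direction.

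The difference of the sire treatment effect between ventral males and ventral females passed for none of the 34 genes and for 1.07% of all genes with edgeR, and for none and 2.72% with DESeq2. An unadjusted p under 0.05 was found for 3 of the 34, against 14.2% of all genes. The smallest p was that of Scn7a (male minus female -0.76 ± 0.29, edgeR adjusted p = 0.248), which had 3.63, 2.31 and 2.40 CPM in nicotine-sired males, against 3.71, 3.02 and 2.63 CPM in saline-sired males. Cacna1a came next (-0.34 ± 0.14, edgeR adjusted p = 0.285), with 106, 77.8 and 88.0 CPM in nicotine-sired males and 94.7, 96.3 and 101 CPM in nicotine-sired females, against 109, 92.4 and 109.7 CPM in saline-sired males and 90.4, 81.5 and 91.1 CPM in saline-sired females. Cacng2 was the third (-0.32 ± 0.14, edgeR adjusted p = 0.305; -0.18 without nicotine-sired female A), with 56.5, 54.3 and 49.0 CPM in nicotine-sired males, against 56.7, 52.7 and 54.0 CPM in saline-sired males. Without nicotine-sired male A, Scn1a passed in this comparison (-0.55, edgeR adjusted p = 0.0168) and in females (0.37, edgeR adjusted p = 0.0439). In the same refits the calls over all genes went up to 463, against 205 with every animal, and to 51, against 6. Scn1a had 91.4, 59.0 and 55.4 CPM in ventral libraries of nicotine-sired males and 67.7, 64.3 and 61.9 CPM in those of nicotine-sired females, against 68.0, 62.4 and 63.8 CPM in saline-sired males and 53.1, 50.6 and 45.8 CPM in saline-sired females.

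In dorsal hippocampus edgeR called 1 of the 34 genes, Cacna1c, which encodes an L-type channel that couples activity to transcription, and it did so in males. Cacna1c (chr6:118587240-119196418, minus strand) had 58.9, 61.7 and 71.2 CPM in nicotine-sired males, against 79.8, 78.7 and 89.3 CPM in saline-sired males. The groups did not overlap, as for 8 of the 34 genes in dorsal males and 25.2% of all genes, and Cacna1c fell by 0.37 ± 0.09 on the log2 scale (edgeR adjusted p = 0.0474); 1.78% of all 19130 genes passed, and 1.31% passed as lower. DESeq2 also called it (adjusted p = 0.0055), with 5.18% of all genes, and 7 of the 34, against 17.6% of all genes, had an unadjusted p under 0.05. The call was close to the threshold: it was lost in 10 of 12 refits without 1 animal, and 3 alternative settings moved its adjusted p to between 0.052 and 0.107. The libraries of these males also differed in the antisense ratio (0.412%, 0.441% and 0.204% in nicotine-sired, against 0.200%, 0.432% and 0.170% in saline-sired males) and in the summed choroid plexus markers (2054, 1788 and 64.1 CPM in nicotine-sired, against 5436, 153 and 149.8 CPM in saline-sired males). Both of these overlapped between the groups, as did the sums of all marker lists except the neuronal, microglial, mural and endothelial ones. A lack of overlap was also found for 25.2% of all single genes. The summed neuronal markers had 3903 to 4083 CPM in nicotine-sired and 3268 to 3893 CPM in saline-sired males, the microglial ones 179.9 to 202 and 161 to 177, the mural ones 107 to 126 and 88.6 to 97.1, and the endothelial ones 108 to 115 and 116 to 131 CPM. Single markers did not all follow these sums. Of the endothelial ones, Flt1 and Pecam1 were lower in nicotine-sired males without overlap. Cldn5 was higher there without overlap (25.4 to 28.0 against 18.7 to 24.7 CPM), and Cdh5 overlapped. Syt1 and Rbfox3 (neuronal), Csf1r and Tmem119 (microglial) and Kcnj8 (mural) overlapped as well. The part of these cell types in the Cacna1c difference was not tested. In dorsal females Cacna1c had 61.0, 72.0 and 71.4 CPM in nicotine-sired, against 75.7, 71.8 and 71.9 CPM in saline-sired ones, and the difference between the sexes did not pass (male minus female -0.28 ± 0.12, edgeR adjusted p = 0.225).

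Next in dorsal males came Cacna1s and Scn3a, which did not pass. Cacna1s had 0.297, 0.328 and 0.208 CPM in nicotine-sired males, against 1.24, 0.522 and 0.425 CPM in saline-sired males (-1.40 ± 0.44, edgeR adjusted p = 0.133). The highest value was that of saline-sired male A, the library richest in choroid plexus markers among males, and without it the fold change was -0.77. Scn3a had 28.8, 26.7 and 31.1 CPM in nicotine-sired males, against 33.1, 37.1 and 34.9 CPM in saline-sired males (-0.28 ± 0.12, edgeR adjusted p = 0.239). Over both sexes none of the 34 genes passed in dorsal hippocampus with edgeR, of all genes 0.0784% did, and 5 of the 34, against 10.8% of all genes, had an unadjusted p under 0.05. With DESeq2, 1 of the 34 passed, Cacna1c (-0.23, DESeq2 adjusted p = 0.0489), and 1.3% of all genes. The edgeR values over both sexes were -0.23 ± 0.06 for Cacna1c (adjusted p = 0.211), 0.21 ± 0.09 for Cacng7 (adjusted p = 0.431; 0.12 without nicotine-sired female A) and -0.18 ± 0.08 for Scn3a (adjusted p = 0.453).

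**Figure D4:**
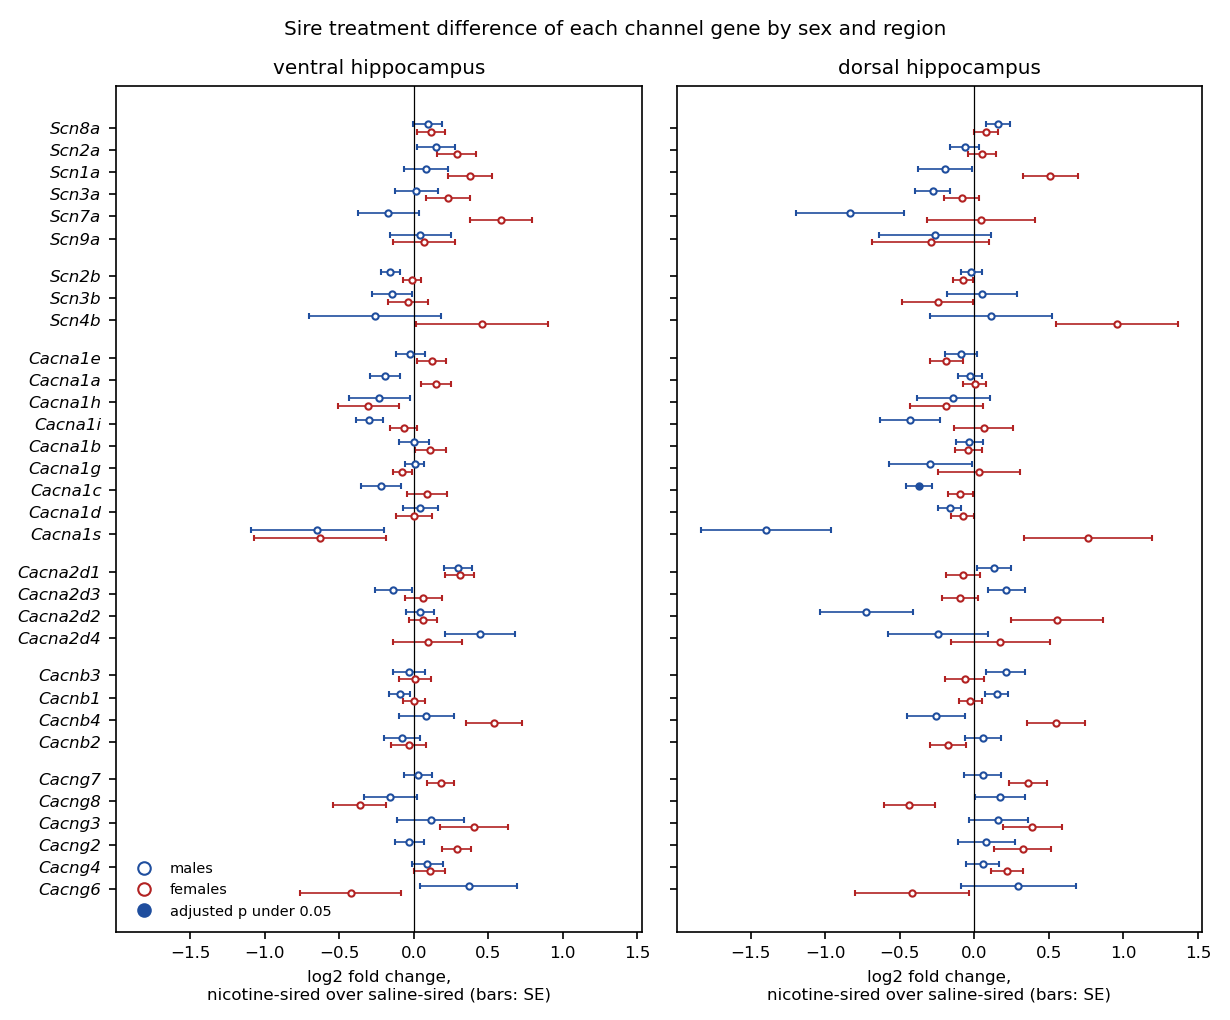
Log2 fold change of 32 channel genes, nicotine-sired over saline-sired, with its standard error, in ventral (left) and dorsal (right) hippocampus and in males (blue) and females (red). The only filled point, past the adjusted p threshold within a sex, is Cacna1c in dorsal males at -0.37, and Cacna2d1 lies at 0.30 and 0.31 in ventral males and females.

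In dorsal females none of the 34 genes and 0.0314% of all genes passed with edgeR, and none of the 34 and 1.54% of all genes with DESeq2. An unadjusted p under 0.05 was found for 5 of the 34, against 13.3% of all genes. Cacng7, a gamma subunit that modulates AMPA receptors, had 159, 113 and 115 CPM in nicotine-sired females, against 98.8, 95.2 and 109.8 CPM in saline-sired females (0.36 ± 0.13, edgeR adjusted p = 0.273). Cacnb4, a beta subunit whose loss causes the lethargic phenotype in mice, had 169, 89.5 and 106 CPM in nicotine-sired females, against 87.0, 77.2 and 86.3 CPM in saline-sired females (0.55 ± 0.20, edgeR adjusted p = 0.287). Scn1a had 91.8, 55.3 and 60.7 CPM in nicotine-sired females, against 50.3, 47.5 and 49.2 CPM in saline-sired females (0.51 ± 0.18, edgeR adjusted p = 0.288). In each of them the highest value was that of nicotine-sired female A, and without this animal the fold changes were 0.17, 0.22 and 0.24.

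The difference between dorsal males and dorsal females passed for none of the 34 genes with edgeR, of all genes 2.24% did, and 6 of the 34, against 20.2% of all genes, had an unadjusted p under 0.05. DESeq2 called 3, the ones with the smallest edgeR p, where it called 7.12% of all genes: Cacna1s (edgeR -2.16 ± 0.61, adjusted p = 0.0829), Cacnb4 (edgeR -0.81 ± 0.28, adjusted p = 0.139; -0.47 without nicotine-sired female A) and Cacna2d2 (edgeR -1.28 ± 0.44, adjusted p = 0.147). Cacna1s had 0.581, 0.537 and 0.681 CPM in nicotine-sired females, against 0.266, 0.325 and 0.473 CPM in saline-sired females. Cacnb4 had 91.8, 89.3 and 75.7 CPM in nicotine-sired males, against 92.9, 99.8 and 114 CPM in saline-sired males. Cacna2d2 had 21.9, 18.9 and 11.3 CPM in nicotine-sired males and 25.7, 25.9 and 21.2 CPM in nicotine-sired females, against 39.9, 21.3 and 24.5 CPM in saline-sired males and 15.0, 12.7 and 22.3 CPM in saline-sired females. The highest Cacna2d2 and Cacna1s values came again from saline-sired male A, and without it the differences were -0.95 and -1.53. Without nicotine-sired female A, Cacnb3 passed in this comparison (0.49, edgeR adjusted p = 0.0377), where 837 genes were called in all, against 428 with every animal.

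**Figure D5:**
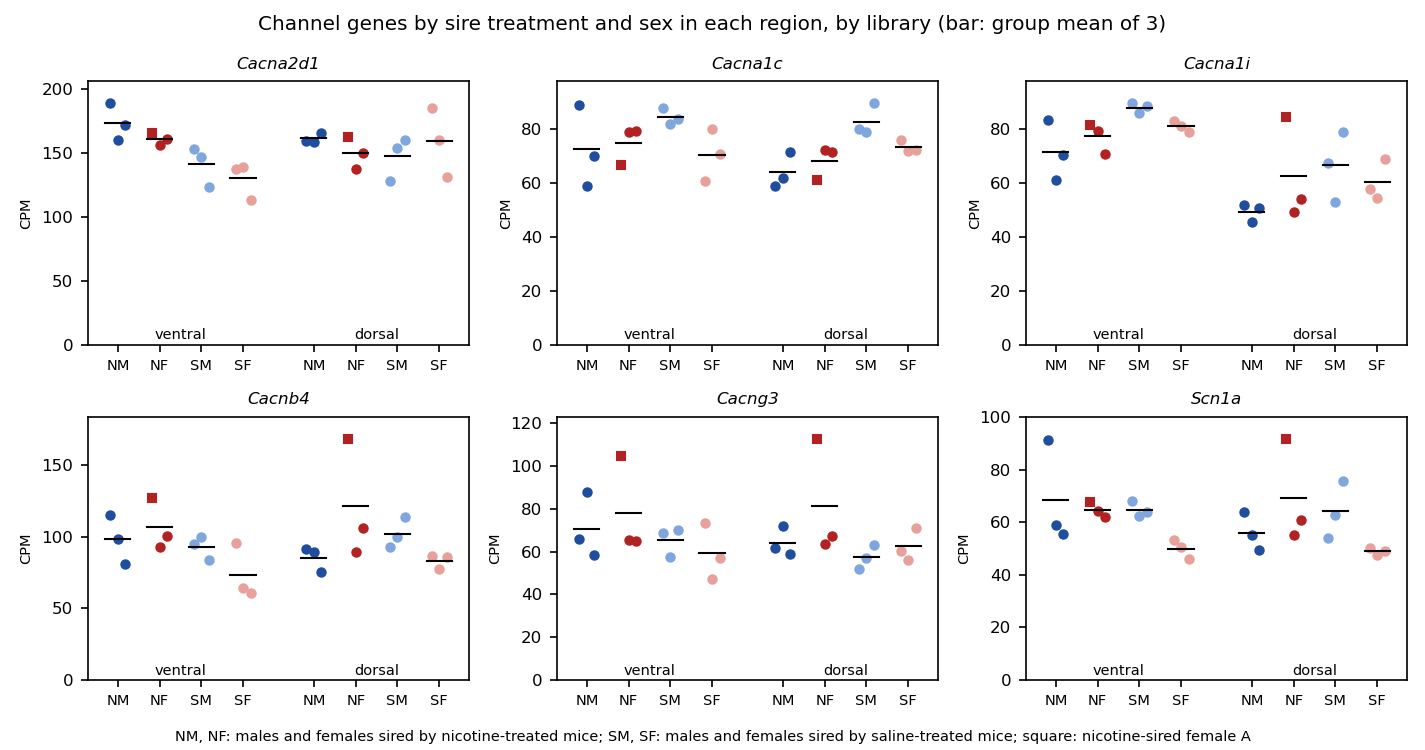
CPM of 6 channel genes by sire treatment and sex, with 1 point per library, nicotine-sired left of saline-sired in each region; bars are means of 3 animals and squares are nicotine-sired female A. All ventral nicotine-sired points of Cacna2d1 (156 to 189) lie above the saline-sired ones (113 to 153), and the dorsal square stands apart for Cacnb4 at 169, Cacng3 at 113 and Scn1a at 91.8.

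The sire treatment difference in ventral minus that in dorsal hippocampus passed for none of the 34 genes and for 0% of all genes, with edgeR and with DESeq2; an unadjusted p under 0.05 was found for 3 of the 34, against 4.76% of all genes. Beside Cacna2d1 they included Scn3a (0.31 ± 0.14, edgeR adjusted p = 0.881; 0.20 without nicotine-sired male A). Scn3a had 36.2, 23.6 and 26.6 CPM in ventral libraries of nicotine-sired males and 23.6, 26.9 and 29.8 CPM in those of nicotine-sired females, against 29.8, 28.0 and 27.6 CPM in saline-sired males and 20.9, 26.8 and 20.9 CPM in saline-sired females. In dorsal libraries of females Scn3a had 22.4, 30.2 and 30.0 CPM in nicotine-sired, against 32.9, 29.4 and 25.8 CPM in saline-sired ones, and in dorsal males the groups did not overlap.

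Genes of the dorsal library of nicotine-sired female A that lay above every other dorsal library included Scn4b at 107 CPM (others 24.9 to 42.0), Cacng2 at 96.0 (46.8 to 59.3), Cacng3 at 113 (52.0 to 72.0), Cacng7 at 159 (95.2 to 123), Cacnb4 at 169 (75.7 to 114) and Scn1a at 91.8 (47.5 to 75.8). Below every other one lay Scn3b at 139 CPM (others 197 to 313), Cacng8 at 73.9 (95.6 to 151) and Cacna1h at 48.9 (70.4 to 114), and also Cacna1e, Cacnb2, Scn3a and Cacng6. Marker lists moved in that library as well. Of the 6 inhibitory neuron markers, 3 lay above every other dorsal library, Pvalb at 82.1 CPM (others 22.6 to 40.4), Vip at 35.3 (8.39 to 18.5) and Sst at 238 (158 to 233), and Gad1, Gad2 and Slc32a1 lay within the others. All 4 endothelial markers lay above the others. Of the neuronal markers, Snap25 at 3249 CPM (1697 to 2256) and Syt1 at 1463 (1118 to 1434) lay above, and Rbfox3 and Stmn2 lay within the others. The CA3 markers split, with Coch above at 18.4 CPM (1.94 to 8.37), Grik4 and Galnt3 below and Cdh24 within the others. All 4 dentate granule markers lay below the others, with a sum of 129 CPM against 223 to 380.1 CPM, and so did 3 of 4 CA1 markers, Wfs1, Fibcd1 and Pou3f1. Of the 4 deep cortex and subiculum markers, Foxp2 lay above at 6.37 CPM (0.623 to 2.03) and Fezf2, Tle4 and Nr4a2 lay within the others. The ventral library of the same animal shared part of this, with Scn4b at 35.2 CPM (others 7.66 to 20.7) and Cacng3 at 104 (47.4 to 87.8); of the deep cortex markers Foxp2 again lay above (5.97) and the other 3 within the others. The part of these cell types in the channel values was not tested.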

How the data were processed

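Per the labels' protocols, RNA from frozen hippocampus was made into stranded mRNA libraries and read as single ends of 150 bp in 3 lanes. Per the submitters' processing notes, the tools were TopHat2 2.1.0, Cufflinks and Cuffdiff 2.2.1.3, and the builds mm10 and GRCm38; no roles are stated. The authors deposited 1 table of whole-number read counts for each gene and library. Which counter made it, with which strand and multi-mapping settings and annotation, is not given in the sources used here. Coordinates and exon lengths came from GENCODE M21 (GRCm38), and promoter windows from RefSeq.

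The labels gave the groups, and each of the 24 columns matched 1 library. Tests used edgeR 4.0.16 (with limma 3.58.1 under R 4.3.3) on the deposited counts, with TMM scaling, filterByExpr, a robust two-sided quasi-likelihood F test and Benjamini-Hochberg adjusted p over all genes, threshold 0.05. Sire treatment was tested in a separate fit per region (19130 dorsal genes, 19224 ventral genes), and region in a fit of all libraries (19849 genes), always with a mean per group. CPM values are counts over the TMM-scaled library sizes of the fit of all libraries. The fits were tested on simulated data. Alternatives were DESeq2 1.42.0, its size factors, no low-count filter, an animal or letter block, leaving out each animal and, chosen after seeing the data, the antisense ratio (544 noncoding genes over their 495 host genes) as a covariate.

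Both libraries of an animal form a pair by design. Over the 12 animals, the correlation of their deviations from the group means had a median of 0.226 and ran from -0.115 to 0.659, with 8 above 0.1. No 2 libraries of a group agreed within sampling noise.

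The 34 genes and the lists of partner and marker genes were chosen with earlier results of these data known. Values by library are given for genes past the threshold in a treatment comparison (up to 8 in each direction), for the 3 with the smallest p where fewer than 3 passed, for up to 8 in each direction between regions, and for the highest and lowest of each subunit class. Partner genes named are up to 5 past the threshold in each direction, and Rims1 was added after its values were seen. One gamma subunit gene was not analysed here, and some members are not reported by name.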

Additional observations from a re-analysis of the deposited data

Results flagged for a closer look

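In each region the 6 libraries of a sire treatment were searched for a single far value, for 25 genes chosen by the rule for values by library, and 13 of 100 such groups held one; chance marks about 1 in 20 independent groups, and these genes were chosen by their values and share libraries, so the count is no evidence of an excess. Of these, 9 were from nicotine-sired female A. In its dorsal library they were Cacna1g at 42.5 CPM (the other 5 nicotine-sired dorsal libraries held 19.8 to 26.4), Cacna1i at 84.5 (45.4 to 54.0), Cacnb4 at 169 (75.7 to 106), Cacng2 at 96.0 (49.4 to 59.3), Cacng7 at 159 (112 to 121), Scn1a at 91.8 (49.3 to 63.8) and Scn4b at 107 (30.3 to 42.0). In its ventral library they were Cacng2 at 69.9 CPM (49.0 to 56.5) and Scn4b at 35.2 (11.7 to 18.2). Nicotine-sired male A stood apart in ventral hippocampus for Scn1a at 91.4 CPM (55.4 to 67.7) and Scn2a at 270.2 (178 to 204). Saline-sired male A stood apart in dorsal hippocampus for Cacna1s at 1.24 CPM (0.266 to 0.522) and, on the low side, Cacng2 at 46.8 (53.1 to 55.3).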

How the results depend on the processing

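The region count of 13 stayed at 13 with DESeq2, its size factors and no low-count filter, was 17 with the animal block (7042 of all genes, against 5803), and ran from 12 to 14 with 1 animal left out. The count over both sexes in dorsal hippocampus was 1 with DESeq2, and the dorsal difference between the sexes 3 with DESeq2; the cause was not tested. The count of 1 in dorsal males was 0 with DESeq2's size factors, with a replicate block by title letter and with the antisense covariate, and the count of 1 in ventral hippocampus over both sexes was 0 with that covariate. Calls over all genes also fell with it, to 146, against 341, in dorsal males and to 1, against 337, in ventral hippocampus over both sexes. With each animal left out, the counts ran from 0 to 1 in dorsal males, in the dorsal difference between the sexes, in ventral hippocampus over both sexes, in ventral males, in ventral females and in the ventral difference between the sexes; in ventral hippocampus the 1 without nicotine-sired male A was Cacna1i, not Cacna2d1. The log2 difference of Cacng2 between the sexes in ventral hippocampus turned to 0.026 with the antisense covariate. For that comparison the fit called 1 gene in all, against 205 without the covariate. The letters share only a letter: pairs of equal letter correlated between -0.387 and 0.26 in dorsal and between -0.319 and 0.248 in ventral libraries, and 4 of 18 were over 0.1 in each. Depth limits the genes near 1 CPM or below, such as Cacna1s, Scn9a and Cacng6.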
